A study of Mus musculus with 4 samples.

Results

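Epithelial adhesion and cytoskeleton genes were followed over the 4 arrays of a study of T cells from mouse gut. The set is 8 named genes, all of them measured, of 22180 genes on the arrays: Epcam, the cadherins Cdh1 and Cdh17, the keratins Krt8, Krt18, Krt19 and Krt20, and Vil1. The rule that chose them names each gene and uses no measured value, but it was written with earlier results of these data known. Each gene was read from its probe set (the group of probes summarized to 1 value) with a single gene symbol and the highest mean over the 4 arrays. Every level is a log2 value, and every difference is a difference of log2 levels of the same probe set between arrays, so a difference of 1 is 2-fold.

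All 4 groups came from C57Bl/6 mice of 8 to 10 weeks, with no genetic change named, and each was 1 array made from pooled animals. The labels give pools of 10 mice, 5 male and 5 female, and do not settle whether arrays shared mice. The first group, recolonized colon IEL, held intraepithelial lymphocytes (IEL, T cells lodged between the cells of the gut lining) of the colon of mice given ampicillin (0.01%), neomycin (0.01%), metronidazole (0.05%) and vancomycin (0.05%) in flavoured drinking water for 7 days, then exposed to the bacteria of untreated littermates for 7 days. The labels give that exposure once as shared housing and once as soiled bedding. The second held colon IEL of unmanipulated mice, the third small intestinal IEL of unmanipulated mice, and the fourth T cells of the colon lamina propria, the tissue under the epithelium. All 4 were enriched by magnetic removal of other cells, and all 4 received a biotin-tagged antibody to EpCAM to take epithelial cells out as well. With 1 array per group, no difference has a replicate check or a test.

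EpCAM is a surface adhesion protein of epithelial cells. E-cadherin (Cdh1) joins neighbouring epithelial cells at adherens junctions, where its tail binds catenins, and LI-cadherin (Cdh17) is a cadherin of intestinal epithelium that lacks the catenin-binding tail. Keratin filaments pair a type II keratin, here Krt8, with a type I keratin, here Krt18, Krt19 or Krt20, and Krt20 is typical of differentiated cells near the lumen. Villin (Vil1) bundles actin in the microvilli of the brush border.

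The labels were first set against marker genes. The 8 measured T cell markers had median levels of 6.65 on the recolonized array, 5.57 on the colon IEL array, 5.75 on that of small intestinal IEL and 2.61 on the array with the lamina propria label (LP). On that last array they lay between 2.22 for Lat and 3.72 for Cd3e, a T cell receptor chain, whereas Cd3e was between 9.17 and 9.49 on the other 3. The defining T cell markers were therefore near the median of all genes there (2.18), and that array is called only by its label, LP. Stromal markers had their highest median, 6.47, on the colon IEL array and their lowest, 3.19, on the LP-labelled array. Red cell markers had medians of 2.65, 7.93, 2.64 and 2.32 in the same order of arrays, with colon IEL standing apart. B cell markers had medians of 2.62, 3.16, 5.97 and 1.65, with small intestinal IEL standing apart. The part of these other cells in the differences below was not tested. In RNA from mixed cells, fewer epithelial cells and less epithelial RNA per cell cannot be told apart.

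Epcam, whose protein the depletion antibody binds, had levels of 5.91 on the recolonized colon IEL array, 4.28 on the colon IEL array, 7.88 on that of small intestinal IEL and 9.20 on the LP-labelled array. Its transcript was thus above the median of all genes on every array, which lay between 2.18 and 2.41. Each step between neighbouring arrays in this order of levels was over 2-fold, with gaps of 1.63, 1.97 and 1.32 from the lowest array upward.

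The cadherins shared that order of arrays but not its steps. Cdh1 had levels of 6.46 in recolonized colon IEL, 4.61 in colon IEL, 6.98 in small intestinal IEL and 9.23 on the LP-labelled array. Recolonized colon IEL and small intestinal IEL lay within 2-fold of each other for Cdh1, with a gap of 0.52. Cdh17 had levels of 4.06, 3.43, 8.23 and 9.37 on the same arrays. For Cdh17 the wide step, of 4.17, lay between the recolonized array and the small intestinal array, and the 2 colon IEL arrays were within 2-fold of each other.

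Among the keratins, Krt8 had levels of 7.44 in recolonized colon IEL, 6.80 in colon IEL, 8.48 in small intestinal IEL and 10.10 on the LP-labelled array. Krt18, its usual partner, had levels of 5.07, 4.53, 5.52 and 7.67 in that order. Krt19 had levels of 4.26, 3.32, 5.10 and 7.44. For Krt18 and Krt19 the 3 IEL arrays followed each other in steps of under 2-fold, and only the LP-labelled array stood over 2-fold above its neighbour. Krt20 had levels of 6.26, 4.78, 9.93 and 9.82. The small intestinal IEL array and the LP-labelled array were level for Krt20, 0.11 apart, and both were over 3 above the other arrays.

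Vil1 had levels of 4.95 in recolonized colon IEL, 4.25 in colon IEL, 9.43 in small intestinal IEL and 8.51 on the LP-labelled array. It was the member with its highest level on the small intestinal array by the widest margin, 0.92, still under 2-fold. On the probe sets used, each of the 8 genes had its lowest level on the colon IEL array and its next lowest on the recolonized array. Cdh1 and Krt18 each have another, dimmer probe set, and those were lowest in small intestinal IEL, at 1.68 and 2.03.

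**Figure D1:**
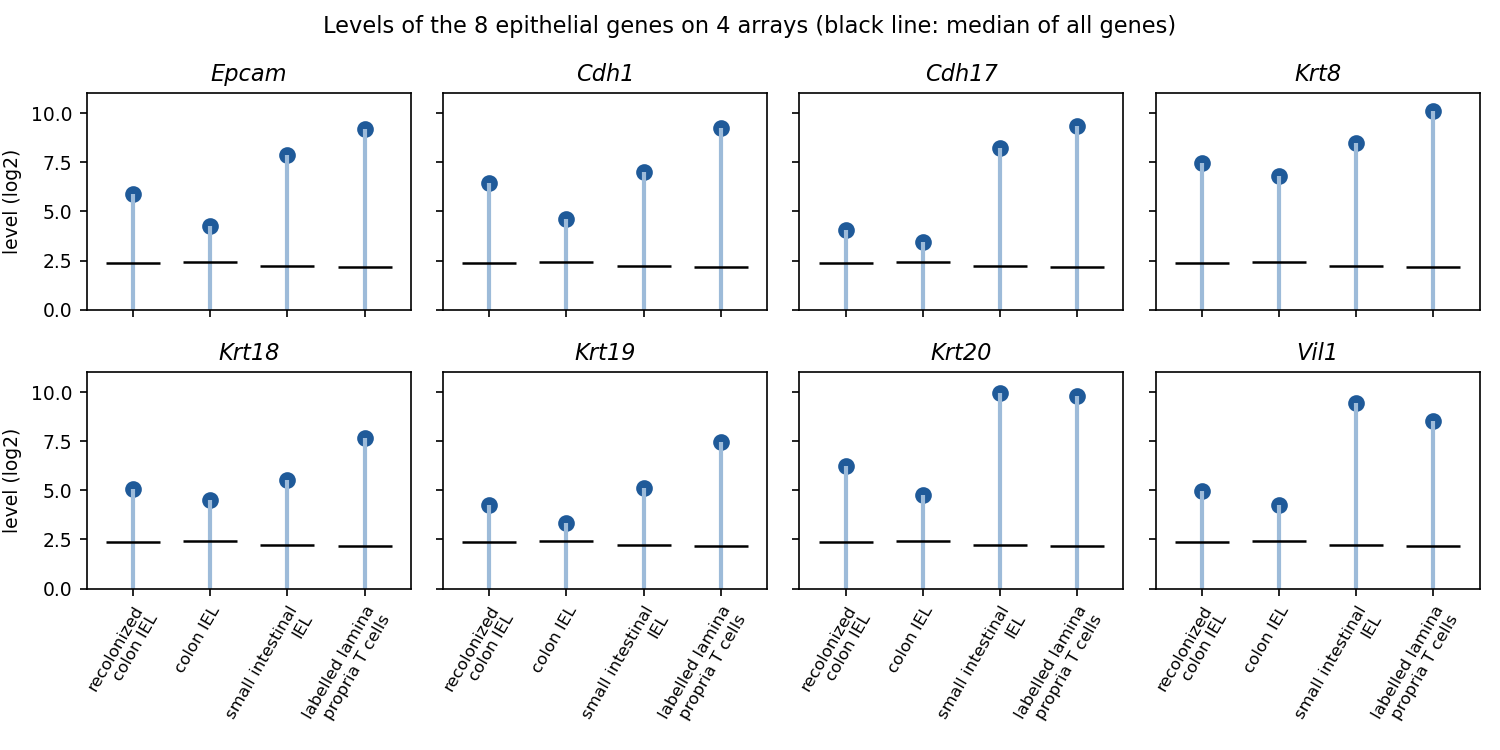
Log2 level (y axis) of each of the 8 genes on the 4 arrays (x axis), 1 point per array with a stem from 0, and a black line for the median of all genes on that array. The colon IEL array is lowest in all 8 panels, and the small intestinal IEL array is highest for Krt20 (9.93) and Vil1 (9.43).

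The stretches upstream of 5 of the 8 genes are shown, those for which the RefSeq promoter table used here had an entry. They differ in how the small intestinal array stood to the LP-labelled array: lower for Epcam, Krt8 and Krt18, and level or higher for Krt20 and Vil1. Cdh1, Cdh17 and Krt19 are not shown for want of an entry, so the 5 were set by the table and not by their levels. Each is the 250 bases before the start of the gene from RefSeq promoter sequences of GRCm38.p6, written 5′ to 3′ on the gene's strand: chr17:87635729-87635978 (+) for Epcam, chr15:102004343-102004592 (-) for Krt8, chr15:102027966-102028215 (+) for Krt18, chr11:99438154-99438403 (-) for Krt20 and chr1:74409134-74409383 (+) for Vil1. Capitals mark matches on either strand to 6 motifs: CACCTG (an E-box of the kind bound by the repressors Snail and Zeb), GGGCGG (a GC box), TTTATG and TTTATT (Cdx type), CAAAGTC (part of an Hnf4 type site) and AACCGG (the core of a Grainyhead type site). Krt8 and Krt18 lie on the same chromosome with 2 genes annotated between them, both long noncoding RNAs.
Epcam: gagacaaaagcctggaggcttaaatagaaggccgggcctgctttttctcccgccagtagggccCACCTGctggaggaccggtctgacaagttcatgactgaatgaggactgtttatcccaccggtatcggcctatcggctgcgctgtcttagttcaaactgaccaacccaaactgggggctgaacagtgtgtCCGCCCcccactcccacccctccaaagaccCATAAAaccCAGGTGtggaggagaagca
Krt8: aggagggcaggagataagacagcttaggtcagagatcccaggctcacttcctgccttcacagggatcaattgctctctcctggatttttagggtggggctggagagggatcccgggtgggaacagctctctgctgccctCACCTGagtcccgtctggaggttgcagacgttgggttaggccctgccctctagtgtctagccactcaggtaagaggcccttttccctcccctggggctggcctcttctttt
Krt18: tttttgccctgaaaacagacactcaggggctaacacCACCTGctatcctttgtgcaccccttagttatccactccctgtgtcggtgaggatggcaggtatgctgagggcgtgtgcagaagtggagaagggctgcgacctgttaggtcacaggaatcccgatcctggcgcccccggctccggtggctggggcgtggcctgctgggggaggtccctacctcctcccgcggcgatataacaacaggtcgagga
Krt20: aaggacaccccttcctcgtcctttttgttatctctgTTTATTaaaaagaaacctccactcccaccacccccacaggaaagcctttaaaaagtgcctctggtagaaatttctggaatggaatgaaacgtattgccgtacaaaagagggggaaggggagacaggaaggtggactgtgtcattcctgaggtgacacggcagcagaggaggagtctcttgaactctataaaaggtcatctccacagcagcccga
Vil1: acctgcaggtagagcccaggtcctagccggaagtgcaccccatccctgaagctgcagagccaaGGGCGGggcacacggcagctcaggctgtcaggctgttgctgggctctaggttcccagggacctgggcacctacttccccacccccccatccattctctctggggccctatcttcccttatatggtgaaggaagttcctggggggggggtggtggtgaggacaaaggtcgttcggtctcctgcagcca
CACCTG or its other strand was found upstream of Epcam (at 187 and 19 bases before the start), Krt8 (111) and Krt18 (214), and in 17.2% of all 32851 promoter windows of that length. GGGCGG was found upstream of Epcam and Vil1 and in 32.7% of all windows. TTTATG was found upstream of Epcam (10.8% of all windows) and TTTATT upstream of Krt20 (18.1%). CAAAGTC and AACCGG, present in 3.84% and 5.62% of all windows, were in 0 of the 5. No motif overlapped another in these stretches, and a match is only a match of letters.

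Colon IEL were compared with the LP-labelled array, by the study's labels a comparison of lymphocytes in the epithelium with those under it. All 8 genes were lower in colon IEL by over 3 on the log2 scale, that is more than 8-fold. Cdh17 differed the most, at 3.43 against 9.37, a difference of −5.94, and Krt18 the least, at 4.53 against 7.67, a difference of −3.15. The 8 of 8 lower by at least 2-fold stand beside 34.7% of the 12788 genes tested, a gene being tested where its level on the brighter array reached the median of all genes there. Their median difference was −4.44, against −0.44 over all genes tested, and −4.00 after that shift was taken off. After quantile normalization 20.7% of all genes were lower and 15.4% higher, in place of 34.7% and 10.5%, and the 8 genes were all still lower by at least 2-fold. Levels of all genes were less spread on the colon IEL array, with an SD of 1.23 against 1.81 on the LP-labelled array, and the part of this in the differences was not tested.

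Epcam was at 4.28 in colon IEL against 9.20 on the LP-labelled array, a difference of −4.92 (30.3-fold), inside the range of the other 7 members. Only Cdh17 and Krt20 (−5.04) differed by more. As measures of spread within this comparison, the SD of the difference was 0.54 over 32 ribosomal protein genes and 1.21 over 10 reference genes (6 of which were themselves at least 2-fold lower, with a median of −1.45), and the 2 probe sets of a gene differed with an SD of 1.41 over 968 genes. Cdh1 and Krt18 each have another, dimmer probe set, and those gave smaller differences of the same sign, −1.09 and −1.41, against −4.63 and −3.15 for the brighter ones.

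**Figure D2:**
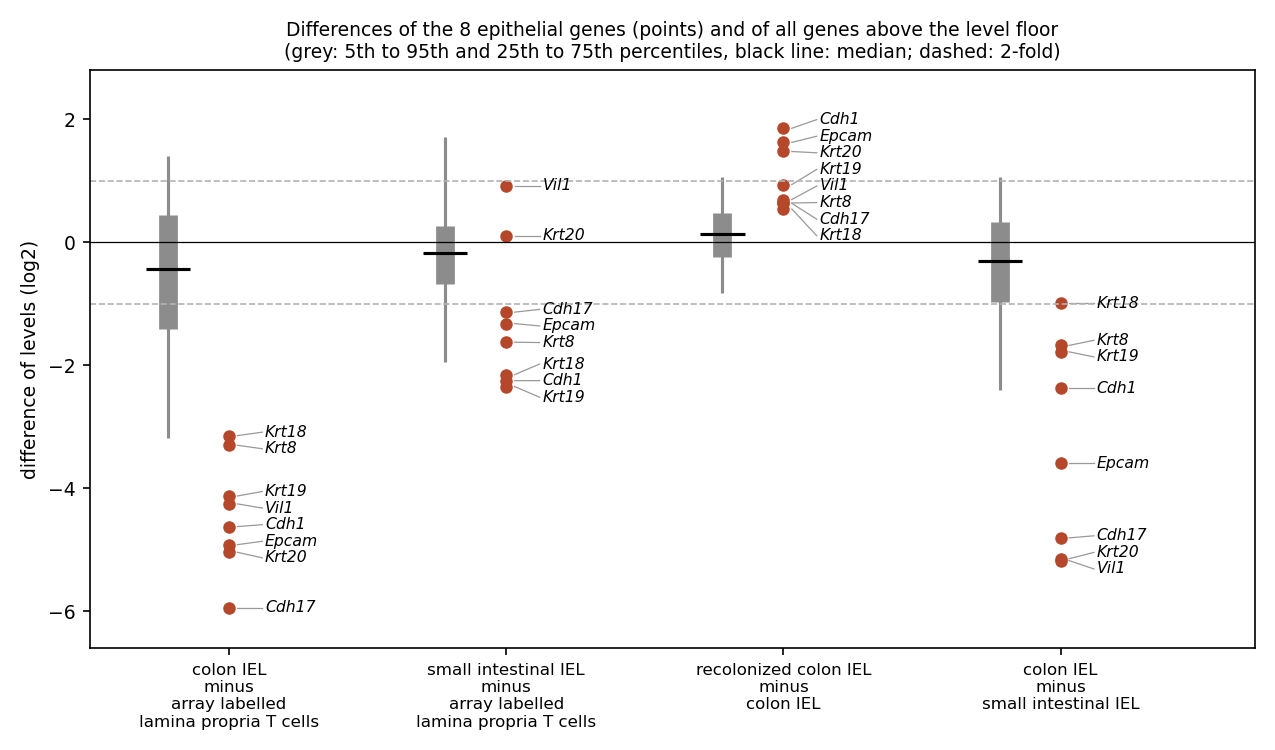
Differences of log2 levels (y axis) in 4 comparisons (x axis). Points are the 8 genes, grey bars the 5th to 95th and 25th to 75th percentiles of all genes tested, black lines their medians and dashed lines 2-fold. All 8 points lie below −3 for colon IEL minus the LP-labelled array, while for small intestinal IEL minus that array Krt20 (0.11) and Vil1 (0.92) lie above 0.

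Other genes of epithelial junctions were lower along with the 8. Each of the 8 listed adherens junction genes was lower by at least 2-fold, and their median difference was −2.60. They included alpha-catenin (Ctnna1) at 3.33 against 7.34 and p120-catenin (Ctnnd1) at 3.30 against 6.37, which bind E-cadherin directly or through beta-catenin. All 10 tight junction genes were lower, with a median of −3.48, among them F11r, the adhesion molecule JAM-A, at 2.72 against 7.35 and Cldn7 at 2.59 against 6.68. Of 8 desmosome genes 6 were lower, led by desmoglein 2 (Dsg2) at 2.93 against 8.41 and desmocollin 2 (Dsc2) at 2.03 against 7.11. Of 11 brush border genes 10 were lower, led by the microvillar cadherin Cdhr2 at 2.48 against 8.48 and the motor Myo1a at 2.28 against 8.03. All 13 epithelial regulators were lower, with a median of −3.79, led by the protease inhibitor Spint1 at 2.01 against 7.32 and the transcription factor Klf5 at 3.69 against 8.83. The junction genes Nectin3, Cldn4 and Dsc2, the brush border gene Myo1a and the regulators Grhl2 and Spint1 lay under the median of all genes in colon IEL (2.41). These genes were tested only through their level on the LP-labelled array. They are included in the counts, and nothing is read from their direction.

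Keratins and cadherins outside the set were mostly dim on both arrays, and only 4 of 9 other keratins and 3 of 6 other cadherins reached the level floor. Krt7, a keratin of simple epithelia, was at 3.96 in colon IEL against 5.02 on the LP-labelled array. Its difference of −1.06 was smaller than that of any member, beside a median of −0.44 over all genes tested. Krt80 was at 3.84 against 2.14, Krt36 at 2.46 against 1.31 and the mesenchymal cadherin Cdh11 at 3.47 against 1.75. These last 3 genes lay under the median of all genes on the LP-labelled array and reached the floor only through their level in colon IEL, so nothing is read from their direction. Colonocyte and goblet cell markers were lower in colon IEL, with medians of −4.58 (9 of 10 lower) and −3.85 (8 of 9). The colonocyte count includes Slc6a14, which lay under the median of all genes in colon IEL. It reached the floor only through the LP-labelled array, so nothing is read from its direction. All 8 T cell markers were higher in colon IEL, with a median of 3.26, including CD45 (Ptprc) at 8.71 against 3.09.

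Small intestinal IEL were set against the same array to place the epithelial signal of the small intestinal fraction. Of the 8 genes 6 were lower by at least 2-fold in small intestinal IEL, 0 were higher, and Krt20 and Vil1 were within 2-fold. The share of all 12164 genes tested that was lower is 15.7%, and the share higher is 8.76%. After centring on the median 12.4% were lower and 10.7% higher, and Cdh17 no longer passed 2-fold while Vil1 was higher by 1.10. Krt19 was at 5.10 against 7.44 (−2.35), Cdh1 at 6.98 against 9.23 (−2.25), Krt18 at 5.52 against 7.67 (−2.15), and Krt8 at 8.48 against 10.10 (−1.62). Epcam was at 7.88 against 9.20, a difference of −1.32 (2.50-fold), and Cdh17 at 8.23 against 9.37, a difference of −1.14. The median of the 8 was −1.47 against −0.17 over all genes tested.

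The lists that accompany the 8 genes divided in the same comparison. Brush border genes, the structure that villin serves, had a median difference of −0.15, with 1 of 11 at least 2-fold lower (Mall at 6.94 against 8.10) and 0 higher. This median was between −0.15 and 0.14 under the scalings tried, so it has no settled sign. The actin bundler Pls1 was at 10.03 in small intestinal IEL against 9.29 on the LP-labelled array, and Cdhr2 at 7.73 against 8.48. Junction and regulator genes were lower instead: 5 of 8 adherens junction genes (median −1.28), 9 of 10 tight junction genes (−2.00), 5 of 8 desmosome genes (−2.00) and 12 of 13 epithelial regulators (−1.90). Among the regulators, the splicing factors Esrp1 and Esrp2 were at 2.52 against 6.43 and 3.12 against 6.03, and the transcription factor Ehf at 2.74 against 6.35. Small intestinal enterocyte markers were higher by a median of 4.18 (12 of 12) and colonocyte markers lower by a median of −4.35 (8 of 9 above the floor). B cell markers were higher by a median of 3.81 (7 of 7). On the LP-labelled array only 3 of these 7 and 10 of the 12 enterocyte markers reached the median of all genes. In small intestinal IEL 6 of 10 colonocyte markers and 12 of 13 epithelial regulators did. The others that were tested reached the floor only through the brighter array, so nothing is read from their direction.

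**Figure D3:**
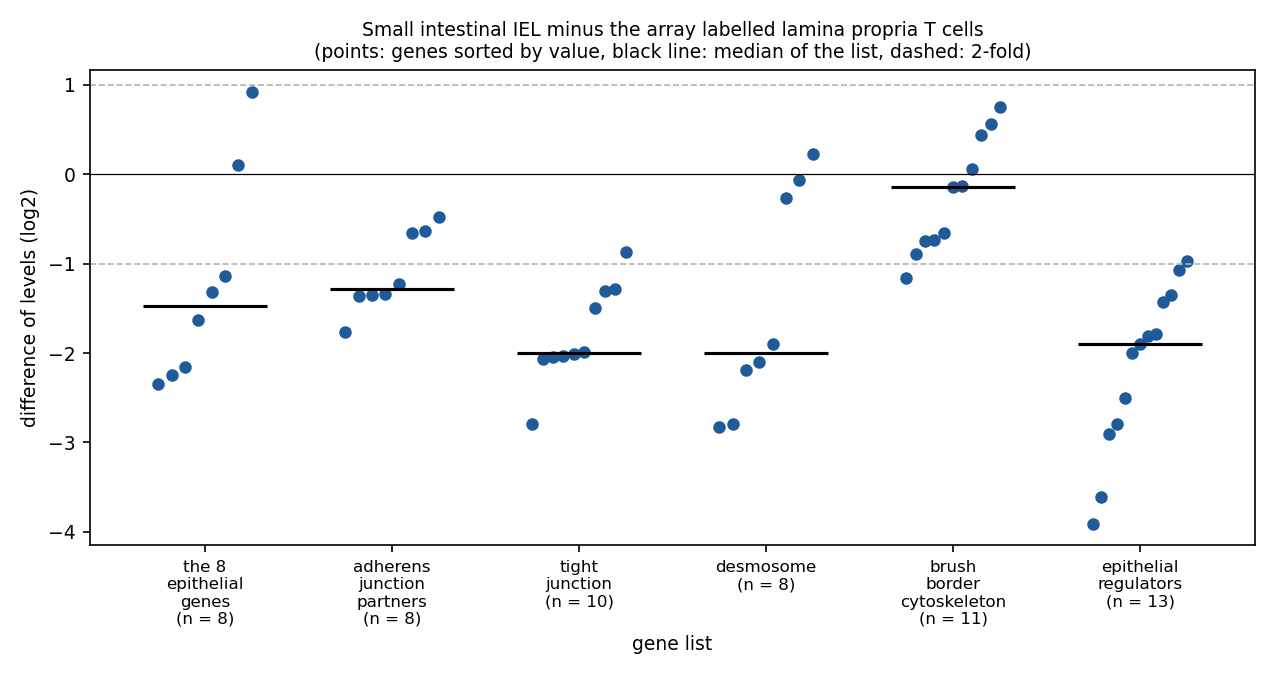
Difference of log2 levels, small intestinal IEL minus the LP-labelled array (y axis), for the genes of 6 lists (x axis). Points are genes, black lines list medians, dashed lines 2-fold. The brush border list centres at −0.15 and the tight junction, desmosome and regulator lists at −2.00, −2.00 and −1.90.

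Colon IEL were compared with small intestinal IEL, a comparison of the same compartment at different sites of the gut. In colon IEL 7 of the 8 genes were lower by at least 2-fold, beside 24.4% of the 12551 genes tested, and the exception, Krt18, was at 4.53 against 5.52 (−0.99). After quantile normalization 13.7% of all genes were lower and 11.4% higher, in place of 24.4% and 5.98%, and 6 of the 8 were then lower, with Krt8 at −0.82. After the lowess correction (removal of the trend of differences with level) 12.9% were lower and 9.11% higher. Then 5 of the 8 were lower, with Krt8 (−0.90) and Krt19 (−0.95) within 2-fold. The differences spanned a wide range. Vil1 was at 4.25 against 9.43 (−5.18), Krt20 at 4.78 against 9.93 (−5.15) and Cdh17 at 3.43 against 8.23 (−4.81). Epcam stood between, at 4.28 against 7.88 (−3.60). The others differed less: Cdh1 at 4.61 against 6.98 (−2.37), Krt19 at 3.32 against 5.10 (−1.78) and Krt8 at 6.80 against 8.48 (−1.68). The sign for Krt18 turned to 0.05 after quantile normalization and 0.06 after the lowess correction, and the other probe sets of Cdh1 and Krt18 gave 0.24 and 0.92.

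The median of the 8 was −2.99, against −0.30 over all genes tested. Brush border genes differed about as much, with a median of −3.09 and 10 of 11 lower, led by Myo1a at 2.28 in colon IEL against 8.46 in small intestinal IEL. Myo1a lay under the median of all genes in colon IEL (2.41) and reached the floor only through small intestinal IEL, so nothing is read from its direction. Adherens junction, tight junction and desmosome genes had medians of −1.48 (7 of 8 lower), −1.39 (5 of 10) and −1.60 (5 of 8). Epithelial regulators had a median of −0.72 (6 of 12 above the floor). Nectin3, Cldn4, Dsc2 and Spint1 also lay under the colon IEL median and reached the floor only through small intestinal IEL. They are included in these counts, and nothing is read from their direction. The reference genes were lower too, with a median of −1.03 and 5 of 10 at least 2-fold lower. After the lowess correction the medians of the 3 junction lists were −0.68, −0.56 and −0.85, and after quantile normalization −0.88, −0.74 and −1.02. The reference genes had medians of −0.52 after the lowess correction and −0.48 after quantile normalization. The part of a general shift in the differences of these lists was not tested. T cell markers had a median difference of −0.35, with 1 of 8 lower and 0 higher; it turned to 0.60 after quantile normalization. Cd3e differed between the arrays by less than 2-fold. B cell markers had a median difference of −2.13, with 6 of 7 lower.

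The recolonized array was also set against both other tissue fractions. Against the LP-labelled array, all 8 genes were again at least 2-fold lower, beside 30.3% of 12589 genes, with differences from −5.31 for Cdh17 to −2.60 for Krt18. A further 9.41% of genes were higher, and after quantile normalization the shares were 17.8% lower and 12.7% higher. Against small intestinal IEL, 5 of the 8 were lower, beside 17.9% of 12379 genes, with 4.76% higher. After quantile normalization these shares were 10.5% and 8.66%, and 4 of the 8 were lower, without Krt8 (−0.55). The differences of the 5 members were −4.48 for Vil1, −4.17 for Cdh17, −3.67 for Krt20, −1.97 for Epcam and −1.04 for Krt8, the last of which was also within 2-fold after centring (−0.83) and lowess (−0.71). Krt19, Cdh1 and Krt18 were within 2-fold, with −0.84, −0.52 and −0.45, and the last 2 signs turned after quantile normalization, to 0.20 for Cdh1 and 0.28 for Krt18. The other probe sets of Cdh1 and Krt18 gave 0.05 and 0.85 against small intestinal IEL. Since these comparisons share arrays with those above, the values are set side by side only.

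Recolonized colon IEL were compared with colon IEL of unmanipulated mice, which sets mice after antibiotics and the return of bacteria beside untreated ones. No array from antibiotics alone was analysed here. All 8 genes were higher in recolonized colon IEL, 3 of them by at least 2-fold and 0 lower, beside 6.04% of the 12443 genes tested that were higher and 3.06% that were lower. After centring those shares were 4.08% and 4.39%, and the same 3 genes passed 2-fold. Cdh1 was at 6.46 against 4.61, a difference of 1.86, Epcam at 5.91 against 4.28, a difference of 1.63 (3.09-fold), and Krt20 at 6.26 against 4.78, a difference of 1.48. The other 5 were within 2-fold. Krt19 differed by 0.94, Vil1 by 0.70, Krt8 by 0.64, Cdh17 by 0.63 and Krt18 by 0.54. The median of the 8 was 0.82, against 0.13 over all genes tested, and the SD of the difference over ribosomal protein genes was 0.64. Counted from 0, Cdh17 and Krt18 differed by less than that SD and Krt8 by about as much, and after centring Krt8 (0.51) and Vil1 (0.57) were below it too. The SD is around the ribosomal genes' own centre, and their median was itself 0.34, so counting from 0 makes the members stand out more. Single ribosomal genes ran from −1.12 to 1.92. The 2 probe sets of a gene differed with an SD of 0.73 over 968 genes. The other probe sets of Cdh1 and Krt18 gave −0.19 and −0.07.

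Among the related lists, the brush border genes had a median difference of 0.51, and 4 of 11 were at least 2-fold higher in recolonized colon IEL, led by Cdhr5 at 5.80 against 3.90. Of 10 tight junction genes 3 were higher, among them F11r at 4.49 against 2.72 and occludin (Ocln) at 4.59 against 3.43, and of 8 desmosome genes 2 were higher, Dsp at 4.71 against 3.53 (1.18) and Dsg2 with a difference of 1.07. No adherens junction gene passed 2-fold (0 of 8 in either direction). Of 12 epithelial regulators above the floor 4 were higher, with Klf5 at 5.32 against 3.69 and Spint1 at 3.58 against 2.01, though the list's median of 0.06 changed sign after centring (−0.07). Spint1, the brush border gene Myo1a and the colonocyte marker Slc6a14 lay under the median of all genes in colon IEL (2.41). These genes reached the floor only through the recolonized array. They are included in the counts of this comparison, and nothing is read from their direction. Colonocyte markers differed by a median of 2.04 (7 of 10 higher) and goblet cell markers by 1.70 (6 of 9), and in both lists the median was larger than that of the 8 genes. The T cell markers differed by a median of 0.65, with 1 of 8 higher. Red cell markers differed by −5.03, with 4 of 5 lower, and B cell markers by −1.04, with 4 of 7 lower. On the recolonized array only 3 of 5 red cell and 4 of 7 B cell markers reached the median of all genes. The others reached the floor only through colon IEL, so nothing is read from their direction. Whether these differences of content bear on those of the 8 genes was not tested.

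**Figure D4:**
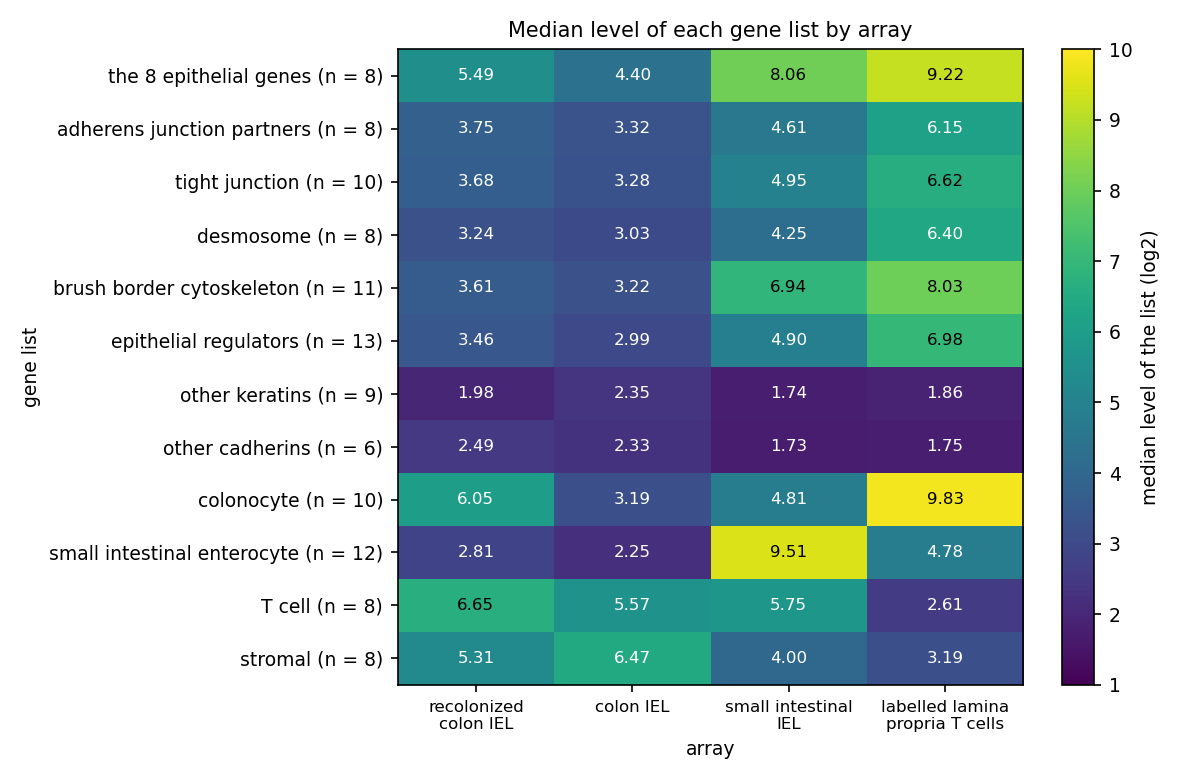
Median log2 level (colour and number) of 12 gene lists (rows, with the number of measured genes) on the 4 arrays (columns); probe sets differ in brightness, so values are to be compared along a row. The 8 epithelial genes have medians of 5.49, 4.40, 8.06 and 9.22, and the T cell list is lowest, at 2.61, on the LP-labelled array.

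E-cadherin is also bound by lymphocytes, through the integrin that Itgae and Itgb7 encode and through the inhibitory receptor Klrg1. Itgae had levels of 5.47 in recolonized colon IEL, 4.82 in colon IEL, 7.90 in small intestinal IEL and 2.33 on the LP-labelled array. Itgb7 had levels of 5.99, 4.38, 5.95 and 2.74. On the array with the highest Cdh1 level, 9.23, Itgae and Itgb7 were at their lowest, as was the median of the T cell markers, 2.61. Small intestinal IEL had the next highest Cdh1 level, 6.98, and the highest Itgae level. A relation of these genes to Cdh1 was not tested. Klrg1 had levels of 3.45, 2.01, 1.84 and 1.52, and the recolonized array stood above the other 3 by over 2-fold. On those 3 arrays Klrg1 lay under the median of all genes and it reached the floor only through the recolonized array, so nothing is read from its direction.

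The profile of each gene over the 4 arrays, centred on its own mean, was set against the median profile of the 8 members. Epcam lay closest to it among the members, with a root mean square distance of 0.23 on the log2 scale, followed by Cdh1 with 0.37, Krt19 with 0.45 and Krt8 with 0.55. Krt18, Krt20, Cdh17 and Vil1 lay farther off, at 0.76, 0.88, 1.06 and 1.14, and 2341 of 8003 other genes at or above the 75th percentile on at least 1 array were closer than Vil1. The genes outside the set with the closest profiles were Il17rc, a subunit of the interleukin-17 receptor (0.08), Ivns1abp (0.11), the unconventional myosin Myo1d (0.13), the drug efflux pump Abcb1a (0.15), Lin7c (0.16), the kinase Fam20b (0.16), the membrane mucin Muc13 (0.19) and desmoplakin (Dsp, 0.20). Muc13 had levels of 8.85, 7.00, 10.22 and 11.49 on the recolonized, colon IEL, small intestinal IEL and LP-labelled arrays. With 4 arrays, closeness of profile is a description of these arrays alone.

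**Figure D5:**
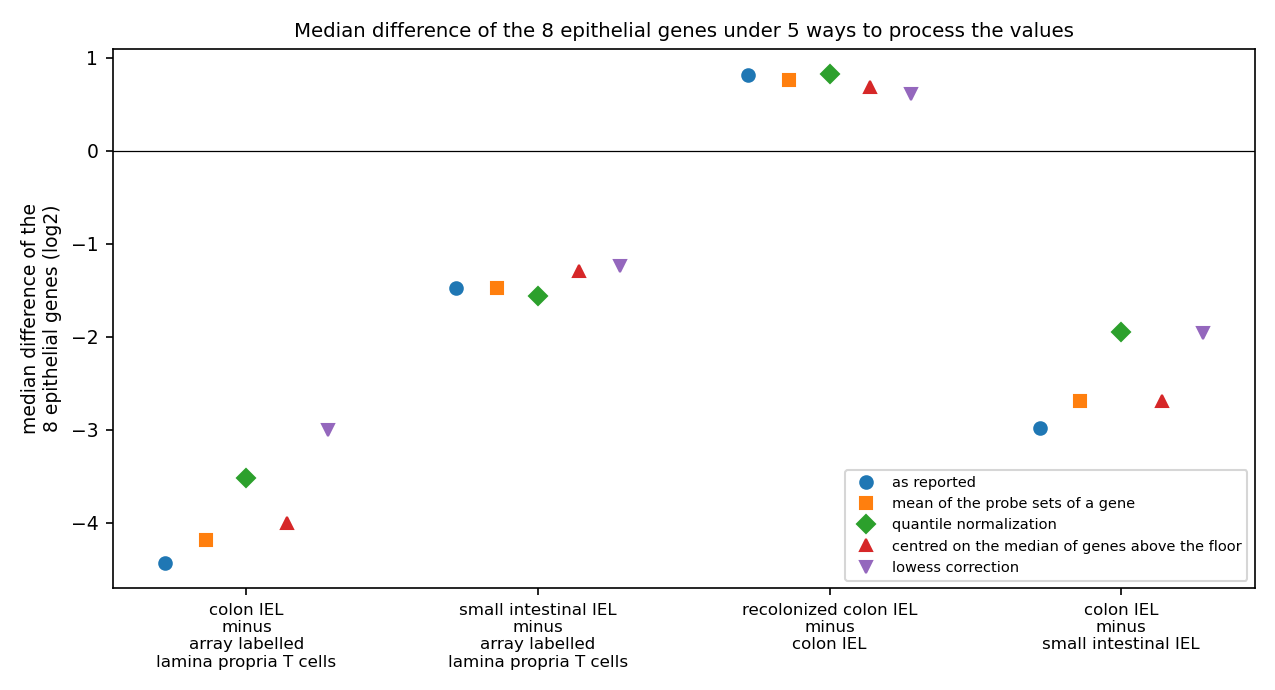
Median difference of the 8 genes on the log2 scale (y axis) in 4 comparisons (x axis) under 5 ways to process the values (symbols). All 5 symbols lie on the same side of 0 in each comparison, with colon IEL minus the LP-labelled array running from −4.44 as reported to −3.00 after the lowess correction.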

How the data were processed

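Expression was measured in 4 groups with 1 whole-transcript array each. The deposited values are log2 probe set levels. The submitters' processing notes name Affymetrix Expression Console. Its version, the summarization, the normalization and the build were not given in the sources used here, so differences were taken only within a probe set. Of 41345 probe sets, 23521 carry 1 symbol in the platform's gene table, 1814 several (naming no gene) and 16010 none there. All 8 members matched RefSeq gene IDs (GRCm38.p6). A gene is its brightest probe set by mean, which gave 22180 genes.

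Differences were counted at 2-fold where the brighter level reached the array's 50th percentile. With 1 array per group no test or p-value is given, and the number of arrays limits precision. Of 211 genes in 20 lists 189 were measured. Text names the members, 4 fixed genes (Itgae, Klrg1, Cd3e, Ptprc), up to 4 genes per list by size of difference, and the 8 closest profiles; Itgb7 completes its pair with Itgae. Members and lists were chosen with earlier results of these data known. The counting steps were tested on simulated data. Alternatives were 1.5-fold and 3-fold, floors at the 25th and 75th percentile or none, the mean of probe sets, quantile normalization, centring, a lowess correction (span 0.3) and the recolonized array. Python 3.11.15 and statsmodels 0.14.6 were used.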

Additional observations from a re-analysis of the deposited data

How the results depend on the processing

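In the 4 comparisons, the median difference of the 8 genes kept its sign under every alternative run. Colon IEL minus the LP-labelled array moved from a median of −4.44 by more than the ribosomal SD to −3.53 (quantile normalization), −3.00 (lowess) or −3.24 (recolonized array in place of colon IEL). Colon IEL minus small intestinal IEL moved from −2.99 to −1.95, −1.96 and −1.50 under the same 3 alternatives. The cause was not tested. For recolonized against unmanipulated colon IEL, the count of members higher went from 3 at 2-fold to 7 at 1.5-fold, a looser threshold. It was 2 with the mean of probe sets. The shares of all genes tested that were higher were 6.04%, 19.3% and 5.55% in that order. For small intestinal IEL against the LP-labelled array, the count of members higher was 0 as reported and 1 (Vil1) after quantile normalization, centring or lowess, or at 1.5-fold. The totals called in either direction were otherwise within 1.5 times those reported. With the mean of probe sets, Krt18 differed by −0.03 between colon and small intestinal IEL. No paired analysis was possible because each group is 1 array. With no second array per group, no value here has a measured error.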
